A study of Rattus norvegicus with 4 samples.

Results

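Axon guidance ligands and receptors were followed across the cell classes of the rat nucleus accumbens. They were chosen by symbol from the deposited feature list: every gene beginning with Sema, Plxn, Robo, Unc5, Epha, Ephb, Efna or Efnb, the Slit genes Slit1, Slit2 and Slit3, and the single genes Nrp1, Nrp2, Dcc, Neo1, Ntn1, Ntn4, Ntng1 and Ntng2. This gave 71 of 30560 genes. They were 20 semaphorins, 9 plexins, 2 neuropilins, 3 Slits, 3 Robo receptors, 4 netrins, 6 netrin receptors (Dcc, Neo1 and the Unc5 genes), 9 EphA and 5 EphB receptors, and 5 ephrin-A and 3 ephrin-B ligands. A further 2 genes, Unc50 and Unc5cl, were caught by their first letters and are not known as guidance genes. The 4 single-nucleus libraries came from Sprague-Dawley rats between 90 and 120 days old. Intraperitoneal cocaine (20 mg/kg) or an equal volume of saline was injected daily over 7 days, and the accumbens was collected 1 hour after the final injection. Each library pooled 2 mm punches, centred on the accumbens core, from 4 rats: saline female, saline male, cocaine female and cocaine male. There is thus 1 pool per sex and treatment, and values below are given in that order of libraries. No allele or transgene is labelled in any group.

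Guidance molecules steer growing axons and migrating cells, and many stay active in the adult brain at synapses and in glia. Secreted netrins attract through Dcc and repel through Unc5 receptors, and Slit proteins repel through Robo receptors. Semaphorins signal through plexins, with neuropilins as co-receptors for most secreted semaphorins, while ephrins and Eph receptors signal in both directions where cells touch. In the striatum they are best known for sorting cortical, dopaminergic and spiny neuron axons during development.

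Promoter sequence from RefSeq (build GRCr8) was found for 56 of the 71 genes. The 3 shown belong to genes on which the class comparisons below turn: Ntng1, a netrin-G ligand anchored to the axon membrane, Ephb1, a receptor for ephrin-B ligands, and Sema3d, a secreted semaphorin. Each runs 5′ to 3′ on the minus strand, from 250 bases before to 50 bases after the annotated start, at chr2:200514982-200515281, chr8:111823710-111824009 and chr4:23460922-23461221. Capitals mark a match to 1 of 4 motifs searched on both strands.
Ntng1: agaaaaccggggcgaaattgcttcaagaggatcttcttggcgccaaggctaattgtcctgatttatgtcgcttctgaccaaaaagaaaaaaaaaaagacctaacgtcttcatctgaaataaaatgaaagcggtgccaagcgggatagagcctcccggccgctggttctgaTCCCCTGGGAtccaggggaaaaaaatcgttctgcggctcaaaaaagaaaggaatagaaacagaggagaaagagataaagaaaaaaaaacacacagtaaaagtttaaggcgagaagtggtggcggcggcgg
Ephb1: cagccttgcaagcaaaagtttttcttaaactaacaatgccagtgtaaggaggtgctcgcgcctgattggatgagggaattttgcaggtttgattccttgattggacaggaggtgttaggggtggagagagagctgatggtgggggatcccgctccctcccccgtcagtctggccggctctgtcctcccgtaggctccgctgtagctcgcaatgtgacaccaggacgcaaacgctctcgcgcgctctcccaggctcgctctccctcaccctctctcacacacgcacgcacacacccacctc
Sema3d: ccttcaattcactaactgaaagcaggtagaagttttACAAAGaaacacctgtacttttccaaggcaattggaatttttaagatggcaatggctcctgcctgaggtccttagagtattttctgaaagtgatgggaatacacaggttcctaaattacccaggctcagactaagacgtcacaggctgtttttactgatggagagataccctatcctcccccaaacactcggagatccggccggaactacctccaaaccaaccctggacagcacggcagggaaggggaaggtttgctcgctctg
The Ntng1 window holds 1 match to the EBF motif (TCCC, any 2 bases, then GGGA), the Sema3d window 1 match to the SOX motif ACAAAG, and the Ephb1 window none. The EBF motif was in 3.51% of the member promoters and 0.834% of all 33469 promoters of that length, and the SOX motif in 8 of 57 member promoters against 18.8% of all. The AP-1 motif TGANTCA was in 1.75% against 7.33%, and the CRE motif TGACGTCA in 1.75% against 1.83%. The SOX motif shares no letters with a match of another motif in these 3 windows, and a match describes the letters only.

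The libraries held 31484217 to 40737786 UMIs (unique molecular identifiers, 1 for each captured RNA molecule) in 6213 to 7265 barcodes. After filtering, 24843 nuclei formed 23 clusters, built without the guidance genes, and 13 classes were named from marker genes. Each name stands for nuclei like that type, since it rests on markers alone. The 6 listed D1-MSN markers summed to 839 to 987 CPM in D1-MSN and 14.8 to 44.7 CPM in D2-MSN nuclei, and the 6 D2-MSN markers to 22.0 to 58.8 CPM and 1373 to 1707 CPM. CPM are the UMIs of a gene scaled to a common total for each class and library. MSN are medium spiny neurons, the projection neurons of the striatum, which carry the dopamine receptor D1 or D2. Any 2 libraries shared 10 to 18 cell barcodes. A class was used where each library held 25 or more of its nuclei, which left 11. As nuclear RNA counts rise with gene length, levels are compared only within a gene. A lower summed level cannot be told apart from fewer expressing nuclei in the class.

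Of the 71 guidance genes, 30 reached a mean of 100 CPM in 2 or more of the 11 classes, 9 in 1 class and 32 in no class. No gene reached it in all 11, and 7 had under 100 UMIs over all classes. The number of genes at 100 CPM or more ran from 10 in microglia and in oligodendrocytes to 22 in the other GABAergic neurons, with 19 in D1-MSN and 21 in D2-MSN nuclei. For 27 genes 1 class led, meaning that its lowest library lay above the highest library of each other class. Oligodendrocytes led for 8 of these, microglia for 5, astrocytes and oligodendrocyte precursors for 4 each, glutamatergic neurons for 3, D1-MSN for 2 and Sst interneurons for 1. These levels are a description of the named classes, with no test.

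**Figure D1:**
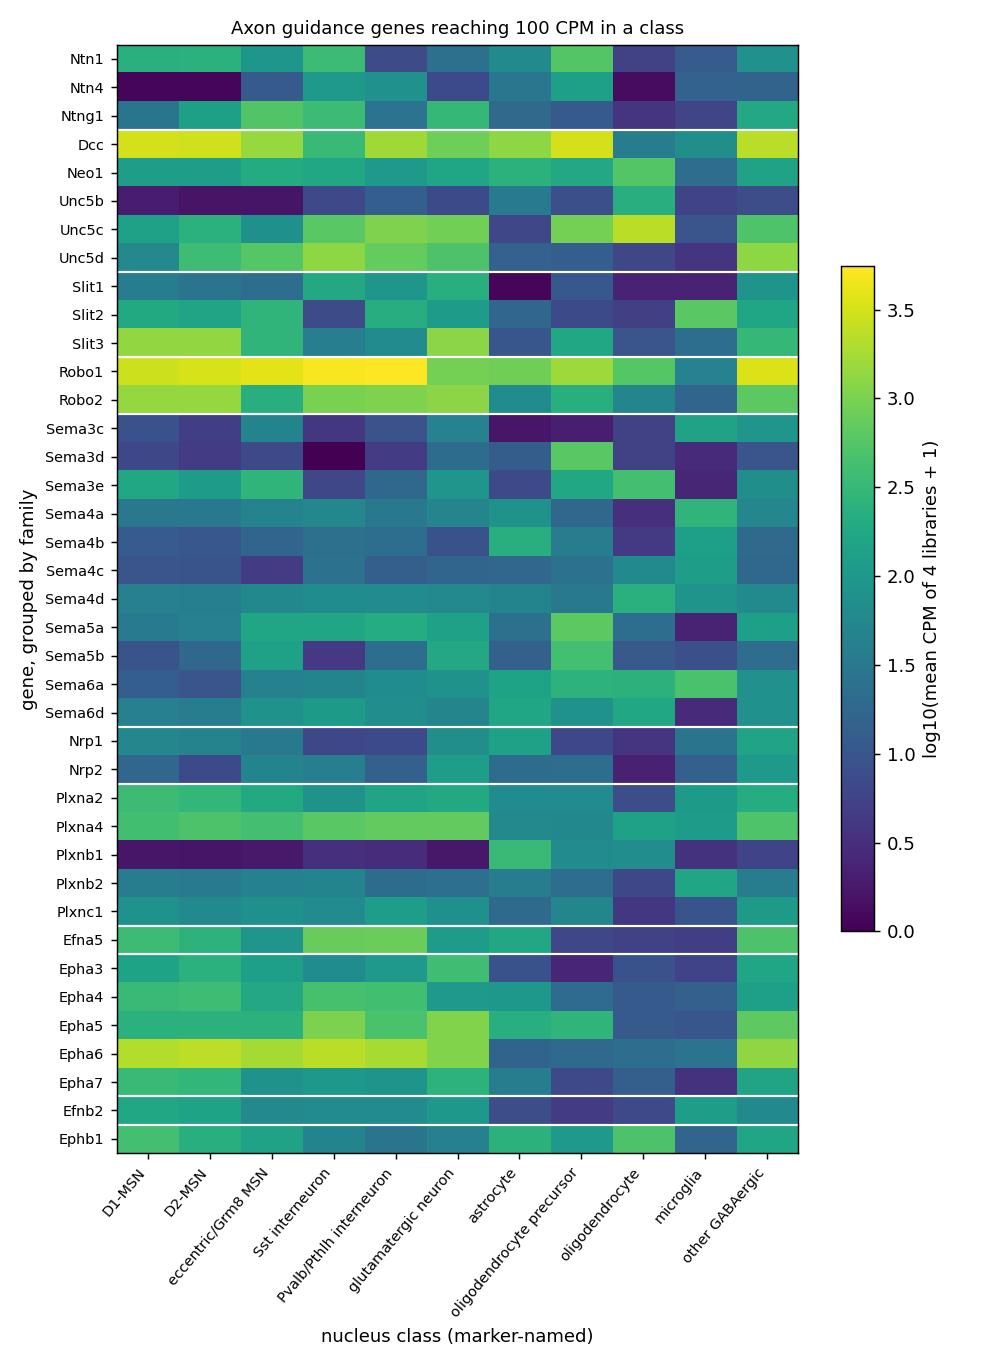
Mean level of each guidance gene that reached 100 CPM in a class (rows, grouped by family with white lines between families) in each of the 11 nucleus classes (columns), as log10 of the mean CPM of 4 libraries plus 1. Unc5c is brightest in oligodendrocytes, at 2266 CPM, while Dcc averages 3230 CPM in D1-MSN and 3196 CPM in oligodendrocyte precursors and 36.2 CPM in oligodendrocytes.

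In oligodendrocytes, the myelinating cells, the leading genes came from both sides of the signalling. Unc5c, a netrin receptor known for repulsion, stood at 2266 ± 120 CPM (SD, n = 4 libraries), and the highest library of any other class reached 1428 CPM. Ephb1 stood at 501 ± 30.5 CPM with D1-MSN next at 418 ± 18.0 CPM, and their libraries did not overlap. Efna1, an ephrin-A ligand, was at 47.2 CPM against 7.89 CPM in the precursors, the next class. Sema3e, a secreted semaphorin that binds Plxnd1 without a neuropilin, was at 417 CPM, ranging from 353 to 479 CPM over libraries. The next class, eccentric MSN, a spiny-like type with Grm8 and Otof, was at 280 CPM for this gene.

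Precursors led for Ntn1 and for 3 semaphorins. Ntn1, the secreted netrin, was at 554 ± 27.5 CPM (SD, n = 4) there, and Sst interneurons came next at 372 ± 51.9 CPM. Sema5a, a transmembrane semaphorin with thrombospondin repeats, was at 625 ± 73.3 CPM in precursors against 205 CPM in Pvalb/Pthlh interneurons. The precursor libraries of both genes lay above all others.

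Microglia and astrocytes led for other semaphorins and for B-type plexins. In microglia, Slit2 ranged from 491 to 858 CPM and Sema6a, a transmembrane semaphorin that binds A-type plexins, from 313 to 702 CPM. Plxnb2, another B-type plexin, was at 162 CPM in microglia against 47.1 CPM in Sst interneurons. These microglial values of Slit2, Sema6a and Plxnb2 rest on 652, 535 and 183 UMIs in all. Plxnb1, a receptor for Sema4d, was at 343 ± 22.4 CPM (SD, n = 4) in astrocytes and 67.6 CPM in oligodendrocytes, the next class. Sema4b, a transmembrane semaphorin, was at 218 CPM in astrocytes against 128 CPM in microglia, and Ephb3 at 54.1 against 24.0 CPM.

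Neuron classes led for few genes, and a gene held at like levels by several of them cannot meet the rule. Robo1, at 5542 CPM in Pvalb/Pthlh and 5097 CPM in Sst interneurons, had no leading class. Plxna2, a semaphorin receptor, was at 367 CPM in D1-MSN against 296 CPM in D2-MSN nuclei. Efnb2, an ephrin-B ligand, was at 168 against 145 CPM in the same classes. Glutamatergic neurons led for Epha3 at 387 CPM, with D2-MSN next at 248 CPM, for Unc5a at 73.2 CPM and for Ntng2 at 44.0 CPM. Sst interneurons led for Sema4f at 51.4 CPM, on 68 UMIs in all.

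D1-MSN and D2-MSN nuclei, the origins of the direct and indirect pathways, differed in the levels of many guidance genes. The netrin receptors Unc5d and Unc5c and the netrin-G ligand Ntng1 were higher in D2-MSN, while Sema3a, Sema3c, Sema3d, Sema3e, the neuropilin Nrp2, Efna5, Slit1 and Ephb1 were higher in D1-MSN nuclei. For Sema3a, Sema3e and Nrp2 the larger D1-MSN cluster, described below, did not average above D2-MSN nuclei. By edgeR's quasi-likelihood test with library as a block, 29 of the 56 genes that passed the low-count filter differed at an adjusted p under 0.05, 12 higher and 17 lower in D2-MSN. Over all 12845 genes tested the share called was 17.3% (8.14% higher, 9.17% lower), and among the guidance genes 51.8%. The median absolute log2 fold change was 0.23 for the guidance genes and 0.09 for all genes. Classes were formed from other genes of the same nuclei, so these p-values say how far 4 libraries repeat a difference.

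Unc5d, which binds netrins and Flrt proteins, was at 319, 442, 420 and 316 CPM in D2-MSN nuclei. In D1-MSN nuclei it was at 68.1, 59.9, 48.2 and 49.7 CPM. All 4 D2 libraries lay far above all D1 libraries, with a log2 fold change of 2.75 ± 0.08 (SE) and an edgeR adjusted p of 2.13e-19. Ntng1 was at 130, 156, 119 and 123 CPM in D2-MSN against 19.8, 30.9, 31.0 and 26.6 CPM in D1-MSN nuclei, higher by 2.29 ± 0.07 on the log2 scale (SE, edgeR adjusted p = 3.62e-18). Unc5c was higher in D2-MSN by 0.83 and Epha3, a receptor for ephrin-A ligands, by 0.75 on the log2 scale, without overlap of libraries. Plxna4, a semaphorin receptor that works with neuropilins, was higher by 0.32 without overlap and Epha8, an EphA receptor, by 0.33 with overlap. Epha8 lost its call without the cocaine male library (0.30), with DESeq2 (0.34) and with no library block (0.33).

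Classes were also formed a nucleus at a time by a marker gate, in which each nucleus joined the class with the largest share of its listed markers seen. Under this gate Ntng1 stood at 1.06 between D2-MSN and D1-MSN and kept its call. The semaphorins Sema5b and Sema5a, called higher in D2-MSN at 0.94 and 0.26, changed sign under the gate, to -0.46 and -0.16.

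In the other direction, Ephb1 was at 444, 408, 405 and 415 CPM in D1-MSN nuclei and at 237, 204, 213 and 218 CPM in D2-MSN nuclei. The classes did not overlap in any library, and the log2 fold change of D2 minus D1 was -0.92 ± 0.03 (SE, edgeR adjusted p = 2.69e-17). Efna5, an ephrin-A ligand, averaged 369 ± 13.6 CPM in D1-MSN and 263 ± 11.1 CPM in D2-MSN nuclei (SD, n = 4). Among secreted semaphorins, Sema3a was lower in D2-MSN by a log2 value of -0.74, Sema3c by -0.97, Sema3e by -0.55 and Sema3d by -0.63. D2-MSN was lower within each of the 4 libraries for these genes, and the classes overlapped across libraries for Sema3a. Sema3c and Sema3d were low in both classes, averaging 7.77 and 5.55 CPM in D1-MSN and 3.91 and 3.53 CPM in D2-MSN nuclei. Sema3d lost its call without the saline female library (-0.47), with DESeq2 (-0.62) and with no library block (-0.62), and Sema3e lost its own with DESeq2 (-0.54). Nrp2 was at 6.87, 21.8, 23.1 and 11.9 CPM in D1-MSN and at 4.23, 7.56, 6.30 and 5.75 CPM in D2-MSN nuclei, a log2 fold change of -1.39. The D1-MSN saline female library lay among the D2-MSN libraries. Slit1, a repellent ligand of Robo receptors, was lower in D2-MSN by -0.45.

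D2-MSN nuclei came from 2 clusters, and some of these differences rested on the smaller one, of 332 nuclei, which had Drd2, Casz1 and Ntng1 among its leading genes. Ntng1 was at 607 to 676 CPM in the smaller cluster and at 75.6 to 97.0 CPM in the larger one of 3495 nuclei. Sema5b, a transmembrane semaphorin, was at 129 against 6.15 CPM, and Sema5a at 134 against 32.6 CPM. Epha3 showed the opposite order, at 8.49 CPM in the smaller and 270 CPM in the larger cluster. With the larger cluster alone set against D1-MSN, an alternative added after the data were seen, 25 guidance genes were called and 23 of them were among the 29. Ntng1 then stood at 1.67 and Unc5c at 0.37, while Sema5b turned from 0.94 to -0.45 and Sema5a from 0.26 to -0.07. Sema3d lost its call there, at -0.49 (edgeR adjusted p = 0.0535). Sema5a also lost its call without the saline male library, at 0.16, without the cocaine male library, at 0.23, and with DESeq2 or no library block, at 0.27 in both cases.

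**Figure D2:**
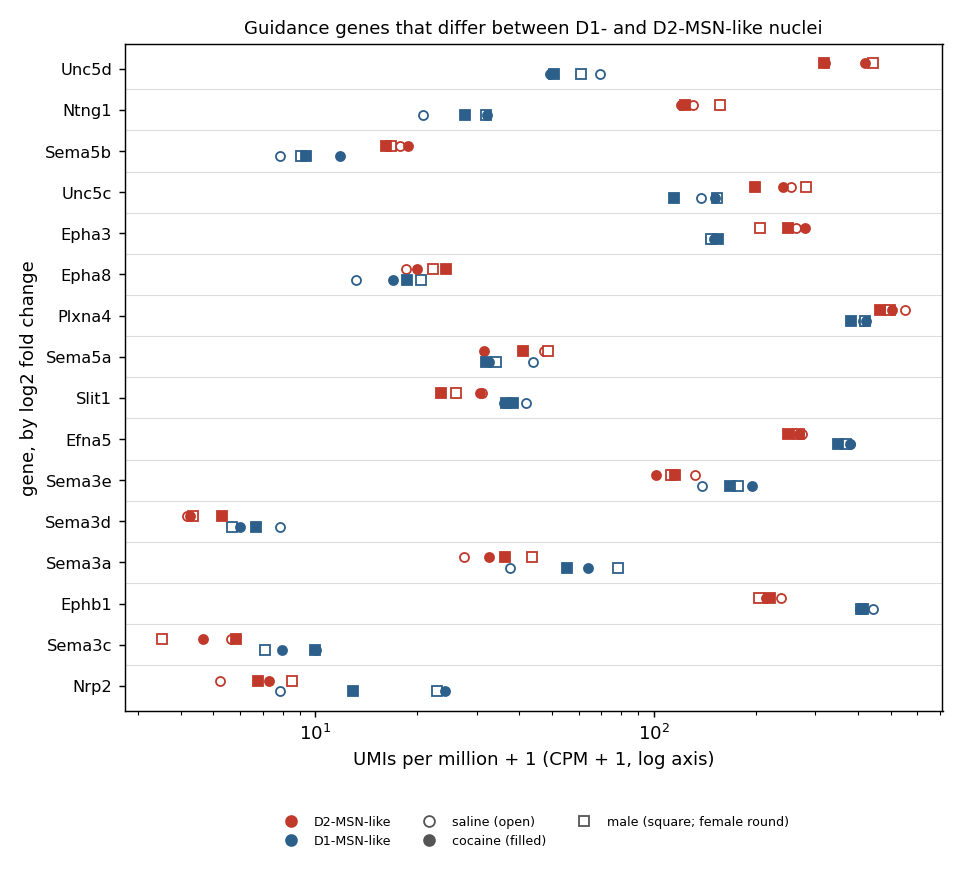
Levels of the 16 guidance genes named for the difference between D2-MSN (red) and D1-MSN nuclei (blue), 1 point per library, on a log axis of CPM plus 1, sorted by log2 fold change. Open points are saline, filled points cocaine, circles female and squares male. The Unc5d points lie at 316 to 442 CPM in D2-MSN and at 48.2 to 68.1 CPM in D1-MSN nuclei.

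The title of the series asks about subpopulations of D1 neurons, and the D1-MSN nuclei here fell into 2 clusters. One cluster of 3092 nuclei was led by Ebf1 and Reln, the other of 1877 nuclei by Htr4 and Isl1. Among 54 guidance genes that passed the filter, edgeR called 28, of which 6 were higher and 22 lower in the Reln-led cluster, 51.9% beside 19.4% of all genes tested (9.35% higher, 10.1% lower). The Htr4-led cluster took 28.6%, 44.7%, 40.8% and 33.6% of D1-MSN nuclei in the 4 libraries, so its share did not split by treatment.

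Unc5d, Nrp2, Sema3a and Slit2 were higher in the Htr4-led cluster. Unc5d was at 224, 111, 104 and 116 CPM there and at 5.67, 17.5, 7.25 and 12.9 CPM in the Reln-led cluster, with no overlap, a log2 fold change of Reln-led minus Htr4-led of -3.61 ± 0.21 (SE) and an edgeR adjusted p of 1.44e-09. Slit2, a Robo ligand, was at 289, 420, 367 and 360 CPM against 77.7, 79.1, 69.8 and 70.3 CPM (log2 fold change -2.24, edgeR adjusted p = 1.72e-12). The 2 clusters stood apart in all libraries for both genes. Both neuropilins were lower in the Reln-led cluster, with Nrp2 at -2.95 and Nrp1 at -1.40. The semaphorins Sema5b (-2.57), Sema3a (-2.40) and Sema3e (-1.26) and the ligand Ntng1 (-1.72) were also lower in the Reln-led cluster in 4 of 4 libraries. Without the saline female library Sema5b stood at -3.23. In the Reln-led cluster Sema3a, Nrp2 and Sema3e averaged 21.0, 4.28 and 108 CPM, against 34.0, 5.96 and 114 CPM in D2-MSN nuclei. Their higher level in D1-MSN as a whole came from the Htr4-led cluster, at 113, 33.5 and 264 CPM. Sema3d (6.97 against 3.53 CPM) and Ephb1 (459 against 218 CPM) were higher in the Reln-led cluster than in D2-MSN nuclei.

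Fewer genes were higher in the Reln-led cluster. Robo2, a Slit receptor, was at 1789, 1783, 1649 and 1737 CPM there against 763, 970, 875 and 861 CPM, a log2 fold change of 1.04 ± 0.06 (SE, edgeR adjusted p = 1.03e-09). The clusters did not overlap. Sema3d was higher by 1.18 and Ephb1 by 0.43, both without overlap. Smaller differences, with libraries of the clusters overlapping, were those of Plxnc1, the semaphorin Sema7a's receptor, at 0.31, Epha10 at 0.33 and Neo1, a Dcc relative, at 0.20. Epha10 lost its call without the saline male (0.33), cocaine male (0.30) or cocaine female library (0.28), and Neo1 without the cocaine male or the cocaine female library (0.18 in both cases). With DESeq2 and with no library block all 3 calls were lost, Plxnc1 at 0.31 and 0.30, Epha10 at 0.33 in both and Neo1 at 0.21 and 0.20.

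**Figure D3:**
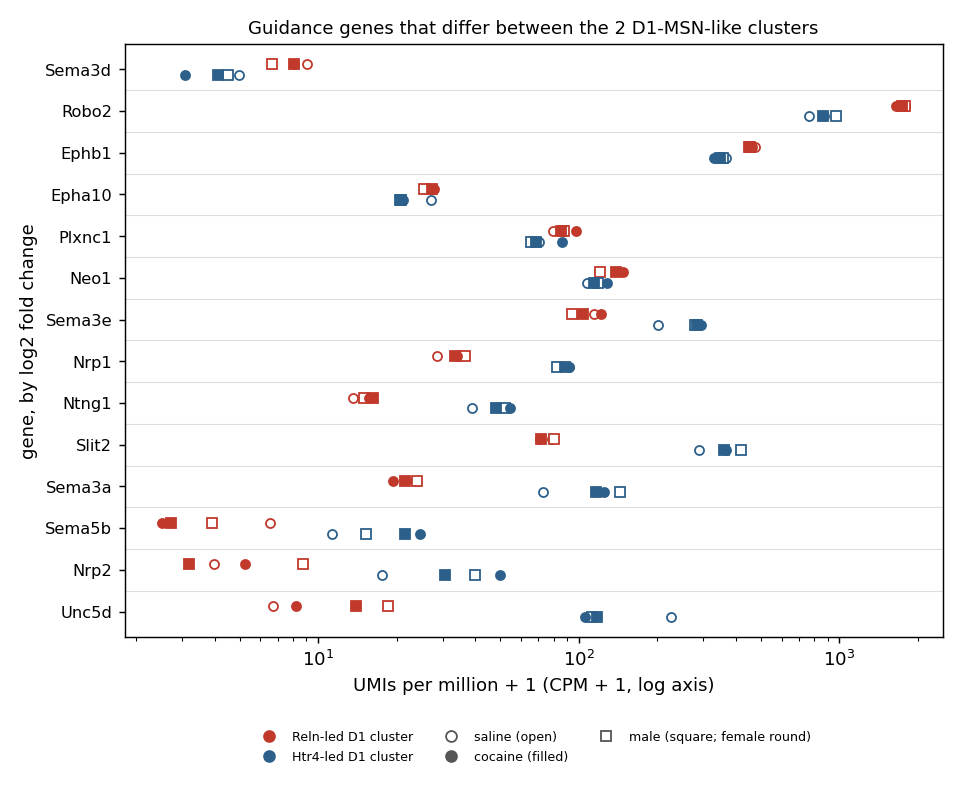
Levels of the 14 guidance genes named for the difference between the Reln-led (red) and the Htr4-led D1-MSN cluster (blue), 1 point per library, on a log axis of CPM plus 1. Open points are saline, filled points cocaine, circles female and squares male. Robo2 is higher in the Reln-led cluster and Slit2, Unc5d and Nrp2 are higher in the Htr4-led cluster in each library.

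Oligodendrocyte precursors, the dividing cells that give rise to oligodendrocytes, were set against oligodendrocytes. Dcc, the netrins Ntn1 and Ntn4 and several semaphorins were higher in precursors, while Unc5b, Unc5c, Neo1, Sema4d, Efna1 and Ephb1 were higher in oligodendrocytes. Precursors held some of these too, with Unc5c at 906 CPM, Neo1 at 178 CPM and Ephb1 at 106 CPM. Of 49 guidance genes that passed the filter, edgeR called 43, of which 30 were higher and 13 lower in precursors. The share called was 87.8%, beside 63.5% of all 10714 genes tested (32.1% higher, 31.4% lower).

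Dcc, the attractive netrin receptor, was at 3092, 3172, 3404 and 3114 CPM in precursors and at 30.3, 25.2, 50.4 and 38.9 CPM in oligodendrocytes (log2 fold change 6.46 ± 0.11, SE, edgeR adjusted p = 1.3e-26). Its ligand Ntn1 was at 515 to 576 CPM against 2.10 to 5.38 CPM, a log2 fold change of 7.05. Of the other netrin receptors, Unc5b, Unc5c and Neo1 ran the other way. Unc5b was at 10.1, 3.00, 9.34 and 6.08 CPM in precursors and at 232, 238, 205 and 239 CPM in oligodendrocytes (log2 fold change -4.93 ± 0.18, SE, edgeR adjusted p = 3.13e-19). Unc5c was lower in precursors by -1.34 and Neo1 by -1.63. Ntn4, a basement membrane netrin, averaged 128 CPM in precursors and 1 UMI per library in oligodendrocytes, so its fitted log2 value of 8.41 depends on the prior count.

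Semaphorins fell on both sides. Sema3d was at 616, 566, 591 and 652 CPM in precursors and at 3.50, 3.78, 5.95 and 4.14 CPM in oligodendrocytes, higher by 7.08 on the log2 scale (edgeR adjusted p = 6.03e-26). Sema3a, Sema5b and Sema5a were higher in precursors by 5.94, 5.57 and 4.80. Sema4d, a transmembrane semaphorin that binds Plxnb1, was at 31.3 CPM in precursors and 241 ± 29.3 CPM in oligodendrocytes (-2.97), and Sema3e and Sema4c were each lower in precursors by -1.33. Among Eph genes, Ephb2, with 3.5 UMIs per oligodendrocyte library on average, was higher in precursors by 5.87, and Ephb1 (-2.26) and Efna1 (-2.57) were lower. Every gene named here had libraries of the classes that did not overlap. Without the saline female library Ephb2 stood at 6.52.

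Under the marker gate these genes kept their calls, at smaller differences. Dcc then stood at 3.50, Ntn1 at 4.91, Ntn4 at 6.47, Sema3d at 5.59, Sema3a at 2.44, Sema5b at 4.46, Sema5a at 3.47, Ephb2 at 3.38 and Ephb1 at -1.33.

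**Figure D4:**
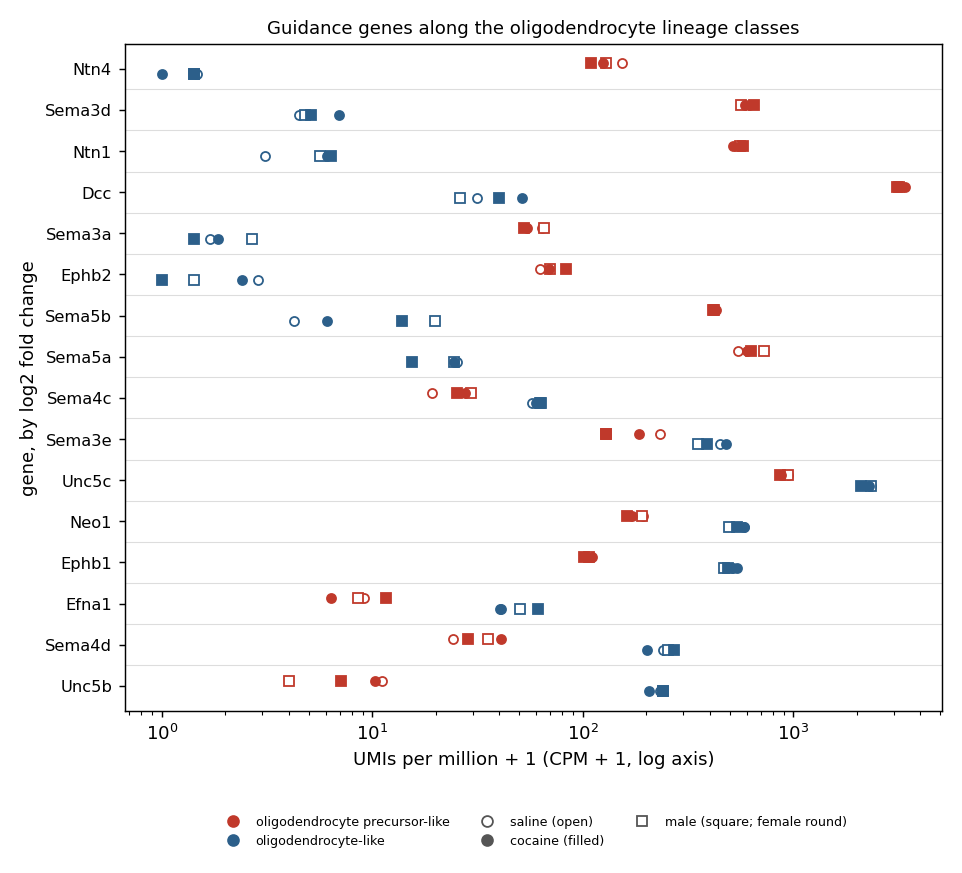
Levels of the 16 guidance genes named for the difference between oligodendrocyte precursors (red) and oligodendrocytes (blue), 1 point per library, on a log axis of CPM plus 1. Open points are saline, filled points cocaine, circles female and squares male. Dcc lies at 3092 to 3404 CPM in precursors and at 25.2 to 50.4 CPM in oligodendrocytes, and the 2 classes overlap for none of the genes shown.

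Other genes of these pathways were taken from a list of partners, co-receptors, adaptors and cytoskeletal effectors, 73 of which were listed. Of these, 27 of 67 that passed the filter were called between D2-MSN and D1-MSN (13 higher, 14 lower, 40.3%), beside 17.3% of all genes tested. Between the D1-MSN clusters 31 of 67 were called, 14 higher and 17 lower in the Reln-led cluster, 46.3% beside 19.4% of all genes. Between precursors and oligodendrocytes 55 of 66 were called, of which 31 were higher and 24 lower in precursors, 83.3% beside 63.5% of all genes. Whether these shares differ from those of the ligands and receptors was not tested.

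With cocaine, 12 calls were made over the 11 classes, and 0 of them in D1-MSN or D2-MSN nuclei. In D1-MSN nuclei edgeR, with sex as a covariate, called 0 of 58 guidance genes beside 0.0301% of all genes, and in D2-MSN nuclei 0 of 56 beside 0.338%. At an unadjusted p under 0.05 there were 4 and 9, and DESeq2 called 0 in both. No call was made either among 60 genes in the other GABAergic neurons (0.0166% of all genes; 6 unadjusted), 38 in Sst interneurons (0.441%; 4 unadjusted), 50 in glutamatergic neurons (0%; 3 unadjusted) and 39 in precursors (0.0237%; 2 unadjusted), with DESeq2 at 0 in each.

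These counts moved with the processing. In D2-MSN nuclei there were 4 calls with another scaling (RLE, edgeR's relative log expression), beside 141 of all 12729 genes. With no low-count filter there were 2, beside 77 of 20027, and under the marker gate 1, beside 154 of 12644. In D1-MSN nuclei there was 1 with no low-count filter, beside 162 of 20669 genes, and 1 under the gate, beside 51 of 13165. With no low-count filter glutamatergic neurons gave 1 (4 of 17259 genes) and the other GABAergic neurons 1 (43 of 19745). Sst interneurons gave 1 under the gate (22 of 7423), and precursors gave 0 under these settings. Calls also came in D1-MSN, D2-MSN and glutamatergic nuclei when some single libraries were left out, which leaves 1 pool in a treatment.

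Tested apart, an alternative added after the data were seen, the Reln-led and Htr4-led D1-MSN clusters each gave 0 of 54, beside 2.19% and 0.318% of all genes, with 10 and 8 unadjusted. In the Reln-led cluster 1 of 66 partner genes was called, Tiam1, a guanine exchange factor for Rac, which fell from 155 and 149 CPM to 133 and 122 CPM (log2 fold change -0.29, edgeR adjusted p = 0.0270). Its call was lost with DESeq2 (-0.29), no sex term (-0.29), no low-count filter (-0.29) and each of the 4 omissions of a library (-0.38 to -0.20). The median log2 fold change of the guidance genes was -0.04 in D1-MSN and -0.09 in D2-MSN nuclei, against 0.000541 and -7.29e-05 for all genes. In D2-MSN nuclei 3 of the 56 had both cocaine libraries above both saline libraries and 17 had both below, 35.7% in all, beside 23%, 11.1% and 34.1% of all genes.

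The 12 calls fell in 5 classes. Pvalb/Pthlh interneurons had 5 of 47 (1.66% of all genes), oligodendrocytes 3 of 41 (1.27%), eccentric MSN 2 of 55 (0.737%), astrocytes 1 of 44 (1.34%) and microglia 1 of 13 (0.145%). DESeq2 called 0 of the 12, and without the sex term edgeR called 2 in all. Each class holds 2 pools per treatment, so the fit has 1 residual degree of freedom, to which edgeR adds information shared by all genes. The degrees of freedom added were 26.1 in Pvalb/Pthlh interneurons, 43.2 in microglia, 209 in eccentric MSN, 1610 in astrocytes and infinite in oligodendrocytes. The p-values of these calls thus rest mostly on a spread between pools shared over genes, and little on that of the gene itself.

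**Figure D5:**
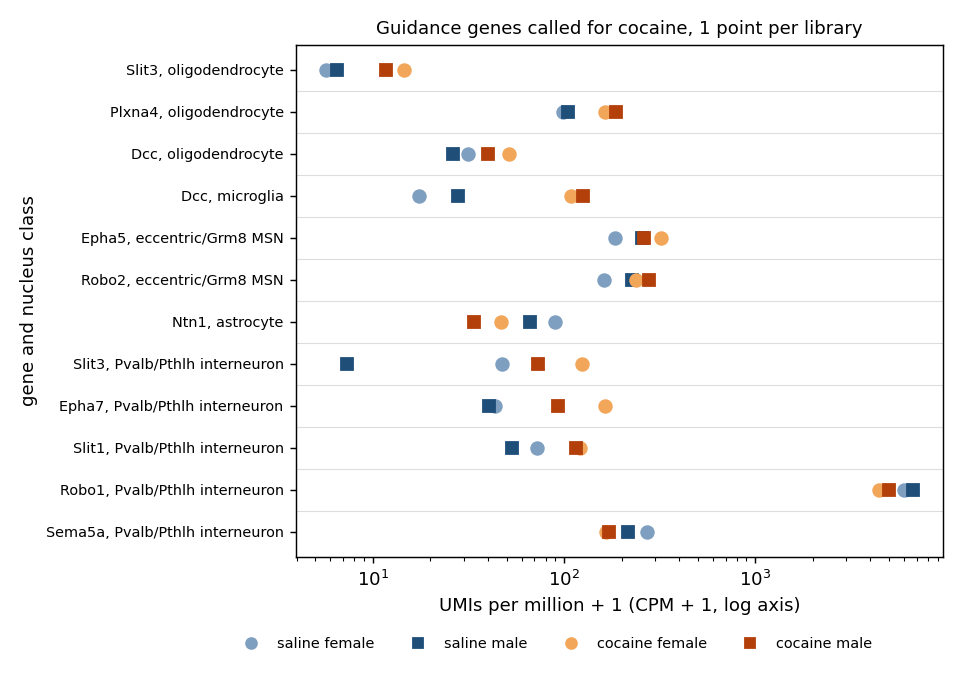
Levels of the 12 gene and class pairs called for cocaine, 1 point per library, on a log axis of CPM plus 1. Circles are female and squares male, blue saline and orange cocaine, the darker shade male. In each pair both cocaine libraries lie on one side of both saline libraries, and the narrowest gap is that of Epha5 in eccentric MSN, from 254 to 261 CPM.

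In oligodendrocytes Plxna4 (ENSRNOG00000013072), the neuropilin-linked semaphorin receptor, rose with cocaine. It was at 97.4 and 104 CPM in the saline libraries and at 163 and 187 CPM in the cocaine libraries, on 248 to 577 UMIs each. Both cocaine libraries lay above both saline libraries, with a log2 fold change of 0.74 ± 0.11 (SE) and an edgeR adjusted p of 1.6e-08. All 3 oligodendrocyte clusters showed the same order, at 103, 98.7, 161 and 188 CPM in the largest, 58.5, 55.8, 110 and 94.1 CPM in the next and 159, 169, 295 and 307 CPM in the smallest. The call was lost without the cocaine male (0.65) or the cocaine female library (0.82), under the marker gate (0.39), with no sex term (0.74) and with DESeq2 (0.73). The direction was the same in both sexes, with log2 ratios of 0.75 in females and 0.84 in males. Plxna4 averaged 410 CPM in D1-MSN and 504 CPM in D2-MSN nuclei. The part of neuronal markers, given next for this class, was not tested for Plxna4 either.

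Dcc and Slit3, both abundant in spiny neurons, also rose in oligodendrocytes, from low levels. Dcc went from 30.3 and 25.2 CPM to 50.4 and 38.9 CPM (log2 fold change 0.64, edgeR adjusted p = 0.0096), beside 3230 CPM in D1-MSN nuclei. Slit3 went from 4.66 and 5.47 CPM to 13.6 and 10.8 CPM (1.26, adjusted p = 0.0227), beside 1349 CPM in D1-MSN. Neuronal marker lists did not all move the same way in this class. The 6 D1-MSN markers summed to 17.7 and 28.2 CPM with saline and 32.6 and 41.4 CPM with cocaine. In 1 of the 6 both cocaine libraries lay above. The 3 general GABAergic markers summed to 15.1 and 24.0 CPM against 25.8 and 31.0 CPM, 1 of 3 above. The 5 eccentric MSN markers were at 7.46 and 6.73 against 8.50 and 10.3 CPM, 1 of 5 above and 1 below. The 4 Pvalb/Pthlh interneuron markers overlapped, at 5.83 and 4.62 against 6.23 and 2.90 CPM. So did the 6 glutamatergic markers, at 2.80 and 3.78 against 5.95 and 2.07 CPM, and the 3 cholinergic markers. The 6 D2-MSN markers overlapped, at 33.1 and 49.6 CPM against 44.5 and 87.7 CPM, with Sp9 at 0, and the 5 Sst interneuron markers were at 8.62 and 20.2 against 22.4 and 27.7 CPM, 2 of 5 above. The 9 general MSN markers summed to 1997 and 1995 against 1950 and 1991 CPM, with 4 of 9 above and 1 below. Their part in these results was not tested. Under the marker gate Dcc stood at -0.059 and Slit3 at 0.087, and with no doublet removal at 0.38 and 1.10, with neither called. Each of the 4 omissions of a library ended both calls, with Dcc at 0.40 to 0.80 and Slit3 at 1.03 to 1.40, as did DESeq2 (0.62 and 1.21) and no sex term (0.63 and 1.24).

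Microglia gave 1 call, again of Dcc (ENSRNOG00000033099). It had 6 and 5 UMIs in the saline libraries and 36 and 29 in the cocaine libraries, or 16.4, 26.8, 107 and 125 CPM. The log2 fold change was 2.45 ± 0.41 (SE, edgeR adjusted p = 0.00042), and without the saline female library the call was lost at 2.05. Beside it, the 6 D1-MSN markers summed to 19.2 and 26.8 CPM with saline and 44.7 and 90.4 CPM with cocaine, 2 of 6 above and 1 below. The D2-MSN markers overlapped, at 32.9 and 37.6 against 35.8 and 108 CPM, with Sp9 and Gpr52 at 0. Of the 6 astrocyte markers Slc1a3 was at 1669 and 1245 against 811 and 753 CPM, the other 5 summed to 8.22 and 10.7 against 2.98 and 4.30 CPM, and Aqp4, Aldh1l1 and Fgfr3 were at 0. Their part in the result was not tested, and with no doublet removal the call was lost at 0.15.

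In astrocytes Ntn1 (ENSRNOG00000003947), the secreted netrin, fell with cocaine. Its levels were 88.8 and 65.4 CPM in the saline and 45.6 and 32.6 CPM in the cocaine libraries, on 40 to 134 UMIs. Both cocaine libraries lay below both saline libraries, with a log2 fold change of -1.01 ± 0.19 (SE, edgeR adjusted p = 3.13e-05), and log2 ratios of -0.96 in females and -0.99 in males. The call was lost without the saline female (-0.78) or the cocaine male library (-0.80). With no doublet removal Ntn1 stood at -0.54 and kept its call. It averaged 240 CPM in D1-MSN and 247 CPM in D2-MSN nuclei, and in the astrocyte libraries the 6 D1-MSN markers summed to 12.6 and 18.8 against 21.5 and 28.6 CPM, 2 of 6 above. Of the 9 general MSN markers 5 had both cocaine libraries above both saline libraries and 1 both below. Pde10a was at 85.5 and 39.9 CPM with saline and 535 and 318 CPM with cocaine, while the other 8 summed to 1474 and 1412 against 1339 and 1545 CPM and overlapped. The 3 general GABAergic markers summed to 9.28 and 9.78 against 15.4 and 17.1 CPM, 3 of 3 above. The 7 oligodendrocyte markers summed to 121 and 103 against 132 and 144 CPM, 5 of 7 above. The 4 vascular markers summed to 131 and 133 against 174 and 190 CPM, 2 of 4 above, with Abcc9 at 0, and the part of these lists was not tested.

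Of the partner and signalling genes, 3 of 59 fell in astrocytes and 0 rose, beside 1.34% of all genes called. Cntn1, an adhesion molecule of axons and glia, fell by 0.76 on the log2 scale (edgeR adjusted p = 2.03e-06), from 270 and 174 to 170 and 99.5 CPM. Vav3, an exchange factor downstream of Eph receptors, fell by 0.58 and Srgap1, a GTPase-activating protein bound by Robo receptors, by 0.49. Both cocaine libraries lay below both saline libraries for all 3. DESeq2 and the fit with no sex term called none of them, and over all genes in astrocytes they called 1 and 2 where the test above called 139. Without the saline female library all 3 calls were lost, with Cntn1 at -0.41, Vav3 at -0.47 and Srgap1 at -0.57, and without the cocaine male library likewise, at -0.42, -0.27 and -0.63. Srgap1 also lost its call without the saline male (-0.41) or cocaine female library (-0.35) and under the marker gate (-0.48). Vav3 lost its own without the saline male library (-0.64), under the gate (-0.55) and with no doublet removal (-0.35), and stood at -0.96 without the cocaine female library, where Cntn1 stood at -1.20.

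In Pvalb/Pthlh interneurons, a class named without Pvalb, 3 guidance genes rose and 2 fell, beside 1.02% and 0.639% of all genes. Slit3 went from 46.2 and 6.36 CPM to 124 and 72.0 CPM (log2 fold change 1.80 ± 0.27, SE, edgeR adjusted p = 0.00011). Epha7, an EphA receptor, went from 42.4 and 39.4 to 163 and 92.0 CPM (1.62 ± 0.21, adjusted p = 1e-05), and Slit1 from 71.3 and 52.2 to 121 and 114 CPM (0.86, adjusted p = 0.00983). Robo1, their receptor, fell from 6017 and 6698 to 4448 and 5007 CPM (-0.48, adjusted p = 0.000982), and Sema5a from 270 and 214 to 165 and 171 CPM (-0.59, adjusted p = 0.0264). In all 5 both cocaine libraries lay on one side of both saline libraries. Of the partner genes 1 of 65 was called here, Nrcam, an adhesion co-receptor for neuropilins, which fell by 0.35. Nrcam stood at 0.015 under the marker gate, and its call was lost with DESeq2 (-0.37), no sex term (-0.36) and each of the 4 omissions of a library (-0.45 to -0.27).

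The makeup of this class moved with the same libraries, and its part in the 5 calls was tested only by the sub-clusters given here. Sst stood at 1.93 and 5.09 CPM in its saline and 60.0 and 58.6 CPM in its cocaine libraries, and the 5 Sst interneuron markers together at 34.7 and 38.2 against 176 and 162 CPM, 3 of 5 above. The 4 listed markers of the class itself summed to 816 and 823 against 664 and 706 CPM, 2 of 4 below and 1 above, with Kit and Pthlh both lower. A sub-cluster led by Eya4, Sst, Cdh9 and Slit3 held 4 and 1 nuclei in the saline and 33 and 13 in the cocaine libraries, and a Vip-led one 6 and 3 against 17 and 10. In the 2 sub-clusters with Kit and Pthlh alone (71, 83, 58 and 59 nuclei), an alternative added after the data were seen, edgeR called 0 of 33 guidance genes beside 0.155% of all genes, with 9 unadjusted. There Epha7 stood at 12.7, 30.7, 38.6 and 56.7 CPM (1.10, edgeR adjusted p = 0.406), Slit1 at 0.56, Robo1 at -0.19, Sema5a at -0.37 and Nrcam at 0.0058, and Slit3 had 2 to 4 UMIs per library and was not tested. Under the marker gate the 5 genes lost their calls, with Epha7 at 0.15, Slit3 at 0.50, Slit1 at 0.41, Robo1 at -0.18 and Sema5a at -0.16, and with no doublet removal Slit1 (0.72) and Sema5a (-0.65) lost theirs. With 1 library left out, Epha7 lost its call without the saline female (1.69) or cocaine female library (1.09), Slit3 without the saline male (1.08) or cocaine female library (1.27), and Sema5a with any one of the 4 left out (-0.74 to -0.40). Slit1 (0.67 to 1.12) and Robo1 (-0.56 to -0.41) kept their calls only without the cocaine male library.

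In eccentric MSN 2 receptors rose. Epha5, an EphA receptor, was at 185 and 254 CPM with saline and 320 and 261 CPM with cocaine (log2 fold change 0.40 ± 0.11, SE, edgeR adjusted p = 0.0352). Robo2 was at 162 and 227 against 236 and 277 CPM (0.39 ± 0.10, adjusted p = 0.0315). The groups came close to each other for both, and the saline female library was the lowest. Without it Epha5 stood at 0.16 and Robo2 at 0.14, and both calls were also lost without the cocaine male (0.53 and 0.27) or the cocaine female library (0.22 and 0.48), under the marker gate (0.29 and 0.26) and with no doublet removal (0.33 and 0.24). The saline female library also stood apart in markers of this class. Its 5 eccentric MSN markers summed to 2891 CPM beside 2128 to 2356 CPM in the other 3 libraries, its 6 D1-MSN markers to 235 beside 369 to 444 CPM, its 6 D2-MSN markers to 129 beside 161 to 285 CPM and its 9 general MSN markers to 13725 beside 15242 to 17072 CPM, with none at 0. Their part in the result was not tested.

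Whether the cocaine effect itself differed between D2-MSN and D1-MSN nuclei was tested with library as a block. Of 56 guidance genes edgeR called 1, Nrp1, beside 0.272% of 12845 genes, and 6 passed at an unadjusted p under 0.05. Nrp1, a co-receptor for secreted semaphorins, had a difference of -0.45 ± 0.11 (SE, edgeR adjusted p = 0.0445). It was at 45.5, 56.5, 57.2 and 52.0 CPM in D1-MSN and at 43.7, 59.5, 40.9 and 40.8 CPM in D2-MSN nuclei. The groups overlapped in D1-MSN, and in D2-MSN both cocaine libraries lay below both saline libraries, without a call in that class (log2 fold change -0.37, edgeR adjusted p = 0.204). The call was lost under 8 of 12 alternatives, among them leaving out the saline male (-0.39) or the cocaine female library (-0.39) and taking the Reln-led (-0.41) or the Htr4-led D1-MSN cluster alone (-0.46). Nrp1 averaged 87.5 CPM in the Htr4-led and 32.2 CPM in the Reln-led cluster, and the Htr4-led cluster's share of D1-MSN nuclei was 28.6%, 44.7%, 40.8% and 33.6% in the 4 libraries. The part of these shares in the result was not tested.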

How the data were processed

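Single-nucleus RNA was measured in 4 libraries, each a pool of 4 rats. The authors deposited filtered matrices of UMI counts per gene and nucleus, made with Cell Ranger 6.1.2 per the file headers, on build rn7 per the submitters' processing notes. Barcodes with under 200 genes or over 5% mitochondrial UMIs were dropped, as were 4.97% to 5.81% of each library with the top Scrublet doublet scores. Clustering used scanpy 1.11.5 and leidenalg 0.10.2 under Python 3.11.15, on 2000 variable genes without the guidance, immediate-early, mitochondrial and sex-linked genes, with 30 components, 15 neighbours and a resolution of 0.5. Clusters were named from marker lists, with score limits set after the data were seen. Pvalb, Slc18a3, Flt1 and Cldn5 were not among the listed symbols, and 7162 features carry no symbol.

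Counts were summed per class and library, in classes with at least 25 nuclei in each library. Sums were tested with edgeR 4.0.16 (quasi-likelihood, TMM, filterByExpr, limma 3.58.1, R 4.3.3), with sex as covariate for cocaine and library as block between classes, at a Benjamini-Hochberg adjusted p of 0.05 over all genes tested. The 4 libraries leave 1 pool per sex and treatment, so sex and pool cannot be told apart. The p-values measure the spread between pools, which in the cocaine fits is largely shared over genes. Log2 ratios within a sex had 0.5 UMIs added. The fits were checked on simulated data. Named genes are all members called for cocaine, up to 8 called members in each direction of each class comparison with a mean of 20 UMIs in the higher class, the top member of each family in each leading class, and other guidance genes called for cocaine. Members and lists were chosen with earlier results of these data known. Alternatives were DESeq2 1.42.0, other scaling, filtering, covariates, doublet handling, a per-nucleus marker gate and leaving out each library.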

Additional observations from a re-analysis of the deposited data

Results flagged for a closer look

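The effect of cocaine on Nrp1, a co-receptor for secreted semaphorins, differed between D2-MSN and D1-MSN nuclei by edgeR's interaction test. The log2 effect in D2-MSN minus that in D1-MSN was -0.45. Its levels and the alternatives under which the call was lost are given with that comparison.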

How the results depend on the processing

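The 64 named results were recomputed under 648 combinations of result and alternative, of which 502 kept direction and call, 139 lost the call and 7 changed sign. The sign changes were Dcc in oligodendrocytes with cocaine under the per-nucleus marker gate (-0.059), Sema5b (-0.46) and Sema5a (-0.16) between D2-MSN and D1-MSN under that gate, and the same genes with the larger D2-MSN cluster alone (-0.45 and -0.065), and Nrcam in Pvalb/Pthlh interneurons under the gate (0.015) and with the Kit and Pthlh sub-clusters alone (0.0058). The 12 calls with cocaine became 0 with DESeq2, 2 without the sex term, 7 with the Kit and Pthlh sub-clusters alone, and 4 to 18 with 1 library left out, which drops the sex term. The marker gate gave 16 calls, of which 2 were among the 12. Of the 16, 7 were in microglia, where 147 of 6068 genes were called, beside 8 of 5530 in the main fit. The 1 call for the difference in cocaine effect became 0 with DESeq2, with no doublet removal, with no library block, with the marker gate and with the Reln-led or the Htr4-led D1-MSN cluster alone, 4 with no low-count filter, and 0 to 4 with 1 library left out. The counts between classes stayed within 1.5 times, and without the library block they were 20 for D2-MSN against D1-MSN, 42 for precursors against oligodendrocytes and 23 between D1-MSN clusters. The cause of these changes was not tested. Settings on single clusters, and all alternatives for the partner genes, were chosen after seeing the data. The labels give no replicate numbers, so no replicate block was fitted beyond sex. The sex term sets the female pools against each other and the male pools likewise, and without it 2 calls with cocaine were made. Depth limits the small classes, since 13 guidance genes passed the filter in microglia and 38 in Sst interneurons.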

Other observations

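A cluster of 147 nuclei led by Enpp6, Bcas1 and Tcf7l2 was left unnamed and entered no comparison. Some of its guidance genes lay above both oligodendrocyte classes, and others near or between their levels. Sema5a averaged 2291 CPM over its 4 libraries, beside 625 CPM in precursors and 21.4 CPM in oligodendrocytes. Ephb1 averaged 1233 CPM, beside 106 and 501 CPM, and Sema4d 949 CPM, beside 31.3 and 241 CPM. Sema3d, at 581 CPM, was near its precursor level of 606 CPM, while Dcc, at 135 CPM, and Ntn1, at 120 CPM, lay between the levels of the 2 classes. These values rest on 84 UMIs for Dcc and 76 for Ntn1, and on 363 or more for the other genes named.

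Another unnamed cluster, of 314 nuclei led by Stac, Adamtsl1 and Drd3, had Epha3 at 1353, 2533, 1823 and 2531 CPM, beside a mean of 387 CPM in glutamatergic neurons, the highest of the named classes. Its Nrp2 ranged from 357 to 503 CPM and its Robo1 from 6479 to 8454 CPM, while Unc5d averaged 13.5 CPM on 14 UMIs.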
